A study of Mus musculus with 92 samples.

Results

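The core circuit of the tumour suppressor p53 was followed as 7 genes: Trp53, Trp73, Mdm2, Mdm4, Cdkn1a, Ccng1 and Ppm1d. They were chosen by name, as p53, its family member p73, the regulators of p53 and its cell-cycle inhibitor. The rule uses no measured value, but the genes were named with earlier results of these data known. All 7 were among the 56953 genes of the tables, and all 7 passed the low-count filter in RNA-seq and in SLAM-seq. The cells were mouse embryonic stem cells of the B6 line, grown in every group with the cytokine LIF and the kinase inhibitors PD0325901 and CHIR99021. They carried a dTAG degron, a tag that the small molecule dTAG-13 links to the degradation machinery. The tag sat on GABPA, the DNA-binding subunit of the ETS-family factor GABP (genotype GabpadTAG/dTAG), on its partner subunit GABPB1 (Gabpb1dTAG/dTAG), or on GABPB1 and its paralog GABPB2 (Gabpb1/b2dTAG/dTAG). The labels do not say whether each line is 1 clone.

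Each line was treated with dTAG-13 at 500 nM or with its solvent, DMSO. RNA-seq of polyadenylated RNA covered the 3 lines after 12 h, in 6 groups. SLAM-seq reads the 3′ ends of RNA, and T-to-C conversions mark RNA made while 4-thiouridine (500 µM) was present. It was done in the GABPA line, in 7 groups. These were dTAG-13 for 1, 2, 4 and 12 h and DMSO for 1, 2 and 12 h, and 1 pair of DMSO libraries served both 2 h and 4 h. Its titles name 2 to 4 h and its treatment label names 2 h, so its exact time is uncertain. Every group held 2 libraries, described by the study as biological duplicates, and the labels name no batch.

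Each RNA-seq library held 15957983 to 32091586 counts. Each SLAM-seq library held 11477034 to 30690961 reads, of which 936622 to 4248509 were converted. In no group did replicate libraries lie within counting error of each other. All 12 stem cell markers examined were at 1 TPM (a transcript's share scaled to a fixed total, corrected for length) or more in every RNA-seq group, and their summed level lay between 11273 and 12763 TPM. Summed levels of 12 fibroblast markers lay between 6.81 and 11.5 TPM, with Lum listed at 0 in every group. Because the degron removes protein, the mRNA response of the tagged genes to dTAG-13 does not check the labels. In DMSO their mRNA differed between lines. Gabpa was 2.99-fold in the GABPB1 line and 3.2-fold in the GABPB1/GABPB2 line, relative to the GABPA line. Gabpb1 was 0.693-fold and 0.717-fold in the same order. Gabpb2 in the GABPB1/GABPB2 line was 0.517-fold that of the GABPB1 line. The part of these differences in the results was not tested. Fold changes are log2 values, dTAG-13 over DMSO, ± the standard error implied by edgeR's quasi-likelihood test (n = 2 against 2), with p-values adjusted by Benjamini-Hochberg over all genes tested. A gene was called changed at an adjusted p under 0.05.

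The p53 protein is a transcription factor that is held at a low level by ubiquitination and degradation, and stress that blocks this turnover lets it accumulate and activate its targets. MDM2 is the E3 ubiquitin ligase that drives the turnover, and its own gene is a target of p53, which closes a negative feedback loop. Mouse embryonic stem cells are known for abundant p53 and for a cell cycle with a short G1 phase. The tables measure RNA and not the p53 protein.

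The promoters of the 7 genes are shown first, because the tagged factor binds the ETS motif and several members are textbook p53 targets. RefSeq windows of build GRCm38.p6, from 250 bases before to 50 bases after an annotated start, were at hand for all 7 genes (10 windows). The build differs from mm39, the build of the expression tables. The letters CCGGAAG, searched on both strands, stood in the windows of 2 of the 7 genes and in 8.86% of all 32851 windows. In both stretches below, of 100 bases each and read 5′ to 3′ on the strand of the gene, these letters or their reverse complement are in capitals. They begin 8 bases before the annotated start of Mdm2 and 21 bases after the more downstream annotated start of Mdm4. The window of the more upstream Mdm4 start did not hold them.
Mdm2, minus strand, chr10:117710729-117710828: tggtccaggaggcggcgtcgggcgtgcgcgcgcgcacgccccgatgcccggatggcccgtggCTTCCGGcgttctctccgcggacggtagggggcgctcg
Mdm4, minus strand, chr1:133025387-133025486: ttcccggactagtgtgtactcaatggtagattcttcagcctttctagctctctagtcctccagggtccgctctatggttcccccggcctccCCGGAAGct

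The p53 consensus, which joins 2 half-sites and was searched without a spacer, matched with 1 mismatch in Cdkn1a and in Ccng1. Of all windows, 0.0883% held a match with at most 1 mismatch. Trp73 held a match with 2 mismatches, and 0.798% of all windows held one with at most 2. Matches are in capitals in the next 3 stretches. Cdkn1a, Trp73 and Mdm4 each have 2 annotated starts. The window of the other Cdkn1a start, downstream of the printed match, held 5 mismatches at best. Those of the more upstream starts of Trp73 and Mdm4 held 6. The match printed for Trp73 lies at its more downstream start. The best matches of Trp53, Mdm2, Mdm4 and Ppm1d had 3 to 5 mismatches in their closest window, with Mdm2 at 5. Of all windows, 6.29% reached at most 3 mismatches, 30.2% at most 4 and 76.6% at most 5. Sites outside the windows were not searched. A match of letters describes the window and does not show that a factor binds there.
Cdkn1a, plus strand, chr17:29090888-29090987: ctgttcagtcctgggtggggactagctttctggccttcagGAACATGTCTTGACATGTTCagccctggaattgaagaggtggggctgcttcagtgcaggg
Ccng1, minus strand, chr11:40755422-40755521: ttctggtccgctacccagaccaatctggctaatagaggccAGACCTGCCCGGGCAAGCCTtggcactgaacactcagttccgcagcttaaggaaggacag
Trp73, minus strand, chr4:154097180-154097279: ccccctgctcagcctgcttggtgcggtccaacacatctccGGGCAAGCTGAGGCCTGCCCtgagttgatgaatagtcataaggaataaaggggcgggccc

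Levels of the 7 mRNAs were set side by side per length, in the deposited TPM. In dTAG-13 cells of the GABPA line Trp53 (357 ± 14 TPM, SD, n = 2) and Cdkn1a (343 ± 30 TPM) did not differ beyond their spread. Mdm2 (206 ± 23.1 TPM) and Ccng1 (162 ± 1.82 TPM) came next, followed by Mdm4 (49.1 ± 2.4 TPM), Ppm1d (28.5 ± 3.58 TPM) and Trp73 (13.6 ± 2.11 TPM). In DMSO cells of that line Trp53 stood clear at the top, at 371 ± 4.22 TPM, followed by Cdkn1a at 146 ± 0.735 TPM. There Ccng1 at 60.2 ± 7.48 TPM and Mdm2 at 54 ± 5.93 TPM did not differ beyond their spread, and Mdm4 (31.5 ± 2.11 TPM), Ppm1d (15.8 ± 0.198 TPM) and Trp73 (1.87 ± 0.297 TPM) followed. Trp53 ranked first, Cdkn1a second, Ppm1d sixth and Trp73 last in all 6 RNA-seq groups.

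In the GABPB1 and GABPB1/GABPB2 lines Mdm4 took the fourth rank, ahead of Mdm2, in all 4 groups. Mdm4 was at 97.6 ± 2.26 TPM in dTAG-13 cells and 86.4 ± 3.5 TPM in DMSO cells of the GABPB1 line, where Mdm2 was at 82.3 ± 3.15 TPM and 70.9 ± 2.66 TPM. In the GABPB1/GABPB2 line Mdm4 was at 104 ± 0.0495 TPM in dTAG-13 cells and 99.2 ± 9.73 TPM in DMSO cells, and Mdm2 at 99.5 ± 1.76 TPM and 87 ± 6.65 TPM. Trp73 stayed the rarest, at 1.65 to 3.01 TPM over these 4 group means.

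With dTAG-13 for 12 h in the GABPA line the mRNA of 6 of the 7 genes rose, and Trp53 itself was not called. The rises ran from 1.65-fold for Mdm4 to 7.44-fold for Trp73, and the median change of the 7 genes was 1.19, beside 0.06 over all 16396 genes tested. In this comparison 24.6% of all genes were called as risen and 21.9% as fallen, 46.5% in all. The 6 calls held with each of the 4 libraries left out and under every other setting tried. In bulk RNA, more cells with a transcript and more RNA per cell cannot be told apart. Stem cell markers summed to 12483 to 12763 TPM in dTAG-13 cells and 11965 to 12128 TPM in DMSO cells, and fibroblast markers to 6.81 to 9.03 TPM and 6.84 to 7.66 TPM. Of the 12 stem cell markers 4 rose and 3 fell, with Tbx3 and Tfcp2l1 at 0.36 and Nanog and Utf1 at -0.34. Of 8 fibroblast markers that passed the filter 3 rose, with Pdgfra at 2.01. Of 11 such markers of differentiated lineages, 2 rose and 2 fell, with Neurod1 at 3.23, and their summed level was 27.8 to 30.5 TPM in dTAG-13 cells and 28.6 to 30.2 TPM in DMSO cells. Their part in the results was not tested.

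Trp53, which encodes p53 (ENSMUSG00000059552.14, mm39 chromosome 11, 69471185 to 69482699), was at 444 and 423 CPM (counts scaled to a fixed library total and normalised by TMM) in dTAG-13 cells and at 446 and 439 CPM in DMSO cells. The groups overlapped, and the change was -0.03 ± 0.0512 (adjusted p = 0.668), with a 95% interval of -0.14 to 0.08. Trp73, which encodes the p53-related transcription factor p73 (ENSMUSG00000029026.18, chromosome 4, 154140706 to 154224665), was at 54 and 43.8 CPM in dTAG-13 cells and at 7.37 and 5.83 CPM in DMSO cells. Both dTAG-13 libraries stood far above both DMSO libraries (2.90 ± 0.15, adjusted p = 7.91e-11). The antisense gene Trp73os, which overlaps Trp73, reached at most 0.295 CPM in any library.

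The inhibitors of p53 came next. Mdm2 (ENSMUSG00000020184.16, chromosome 10, 117524780 to 117546663) was at 502 and 432 CPM in dTAG-13 cells and at 130 and 111 CPM in DMSO cells, a gap several times the spread within either group (1.96 ± 0.0848, adjusted p = 8.35e-12). Mdm4 encodes a relative of MDM2 that binds p53 and blocks its activity (ENSMUSG00000054387.14, chromosome 1, 132887222 to 132958299). Its level was 243 and 266 CPM in dTAG-13 cells and 160 and 147 CPM in DMSO cells, with no overlap (0.72 ± 0.078, adjusted p = 7.64e-07). Ppm1d encodes WIP1, a phosphatase that damps p53 and the kinases upstream of it and is itself a p53 target (ENSMUSG00000020525.18, chromosome 11, 85202070 to 85237892). It stood at 65 and 54.9 CPM in dTAG-13 cells and at 32.9 and 32.3 CPM in DMSO cells, again without overlap (0.88 ± 0.087, adjusted p = 2.9e-07).

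The effectors rose as well. Cdkn1a encodes p21, which binds cyclin-dependent kinases and holds cells before S phase (ENSMUSG00000023067.15, chromosome 17, 29309950 to 29319701). It was at 422 and 385 CPM in dTAG-13 cells and at 177 CPM in both DMSO libraries, so every dTAG-13 library lay above every DMSO library (1.19 ± 0.0744, adjusted p = 9.04e-10). The gene AC167363.2 overlaps Cdkn1a on the other strand and reached 0.963 to 7.99 CPM over the 12 libraries. The sources used here do not give the strand handling, so reads of the pair cannot be told apart. Ccng1, which encodes cyclin G1, a p53 target that recruits a phosphatase to MDM2 (ENSMUSG00000020326.8, chromosome 11, 40639379 to 40646138), was at 422 and 420 CPM in dTAG-13 cells and at 167 and 140 CPM in DMSO cells (1.46 ± 0.0825, adjusted p = 2.52e-10). Its dTAG-13 libraries nearly coincided, while the DMSO libraries spread more widely.

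**Figure D1:**
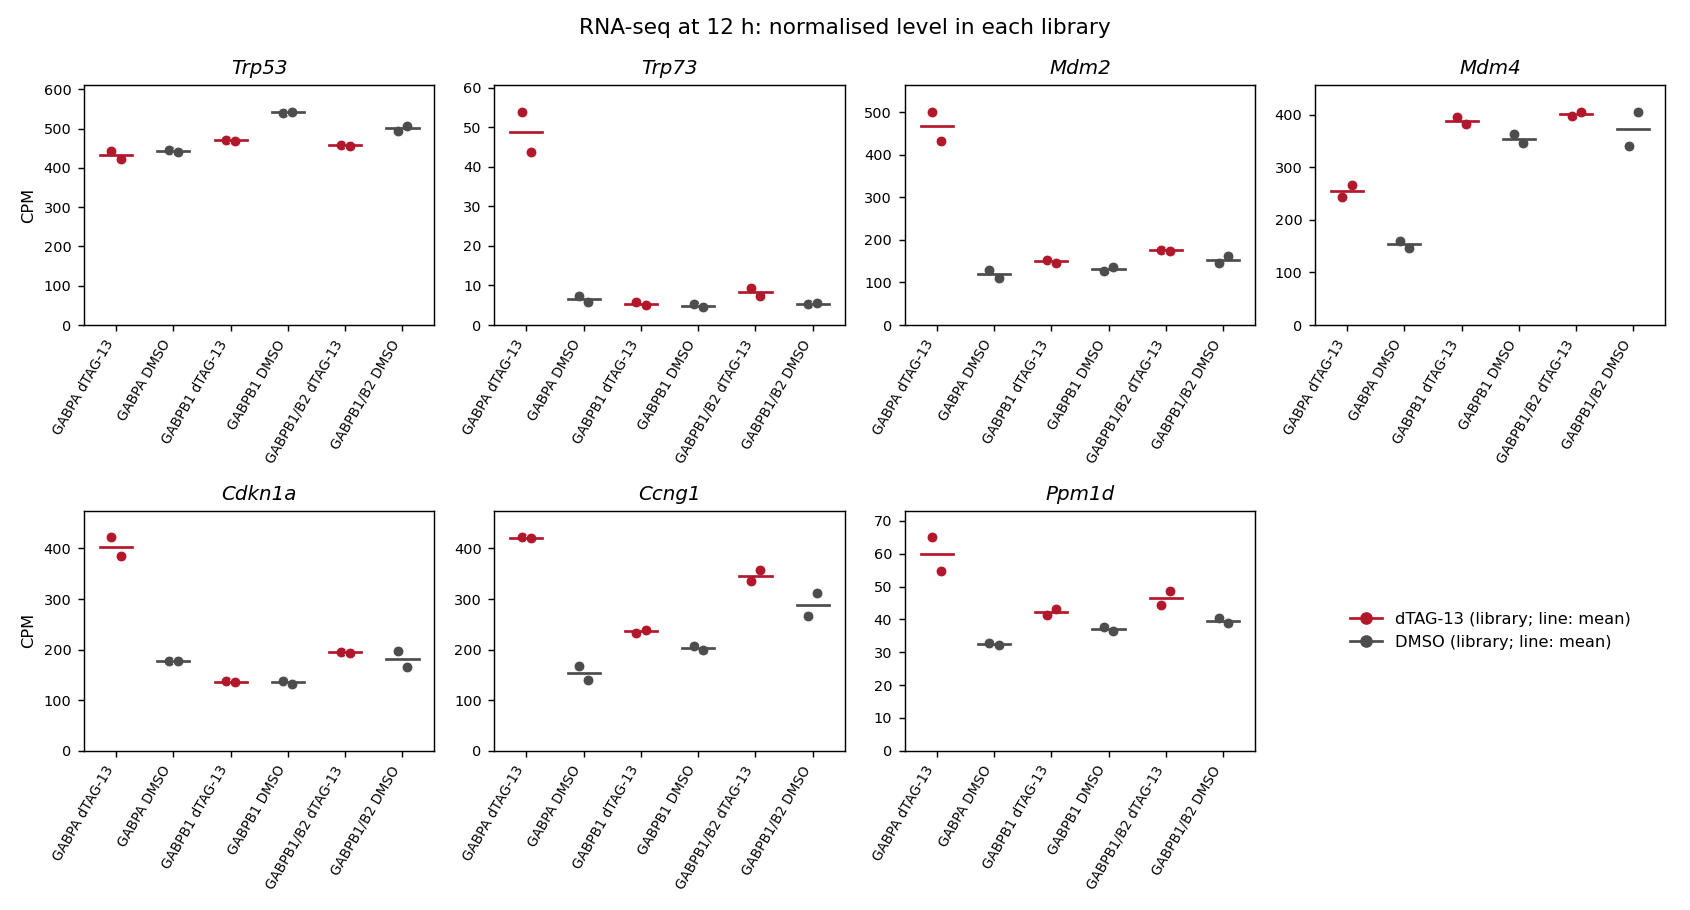
RNA-seq level of each member (vertical axis, CPM from 0) in each library, with dTAG-13 and DMSO libraries of the GABPA, GABPB1 and GABPB1/GABPB2 lines along the horizontal axis; points are libraries and short lines are group means. Mdm2 stands at 502 and 432 CPM in dTAG-13 cells of the GABPA line, against 130 and 111 CPM in its DMSO cells, while dTAG-13 and DMSO points of the other 2 lines lie close together.

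The same 12 h treatment of the GABPB1 line asked whether degradation of the partner subunit moved the circuit. No member was called as risen, beside 1.28% of all genes. Trp53 alone was called as fallen, at 472 and 467 CPM in dTAG-13 cells and 539 and 543 CPM in DMSO cells (-0.20 ± 0.0507, adjusted p = 0.0211), beside 5.46% of all genes. The groups did not overlap, but the call was lost without any 1 of the 4 libraries (adjusted p of 0.188 to 0.271). Mdm2 was at 152 and 147 CPM in dTAG-13 cells and 128 and 137 CPM in DMSO cells (0.18 ± 0.0818, adjusted p = 0.238). Cdkn1a was at 137 and 136 CPM in dTAG-13 cells and 138 and 132 CPM in DMSO cells, which overlapped (0.02 ± 0.0737, adjusted p = 0.949, 95% interval -0.14 to 0.17). The other changes were 0.21 for Ccng1, 0.19 for Ppm1d, 0.14 for Trp73 and 0.13 for Mdm4, with adjusted p-values of 0.138 to 0.728. At an unadjusted p under 0.05 there were 4 members. A fit of these 4 libraries alone called 4 members as risen (Mdm2, Mdm4, Ccng1 and Ppm1d, by 0.14 to 0.22), beside 7.9% risen and 12.4% fallen of all genes in that fit.

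In the GABPB1/GABPB2 line 2 members were called as risen and none as fallen, beside 3.53% and 9.26% of all genes. Trp73 was at 9.48 and 7.42 CPM in dTAG-13 cells and 5.19 and 5.52 CPM in DMSO cells (0.67 ± 0.17, adjusted p = 0.0138). Leaving out DMSO replicate 1 ended that call (adjusted p = 0.0668), as did leaving out replicate 1 of dTAG-13 (adjusted p = 0.232). Ccng1 was at 335 and 358 CPM in dTAG-13 cells and 266 and 311 CPM in DMSO cells (0.26 ± 0.08, adjusted p = 0.0389). Its call was lost in the fit of the 4 libraries alone (adjusted p = 0.0853). It also ended when DMSO replicate 1 was left out (0.16, adjusted p = 0.23), or either library of dTAG-13 (adjusted p of 0.0872 and 0.272). Neither gene's groups overlapped. The remaining changes were -0.13 for Trp53, 0.19 for Mdm2, 0.11 for Mdm4, 0.10 for Cdkn1a and 0.23 for Ppm1d, with adjusted p-values of 0.0918 to 0.425. Mdm4 passed without DMSO replicate 2 (0.24, adjusted p = 0.021) and Cdkn1a without DMSO replicate 1 (0.24, adjusted p = 0.0213).

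The differences between the lines were tested directly. The response of the GABPA line exceeded that of the GABPB1 line for 6 of the 7 genes, beside 12.5% of all genes called in that direction and 13.3% in the other. The largest of these differences was 2.76 ± 0.225 for Trp73 (adjusted p = 9.03e-08), followed by 1.78 ± 0.117 for Mdm2 and 1.24 ± 0.114 for Ccng1. The difference for Trp53, 0.17 ± 0.072, did not pass (adjusted p = 0.0919). Against the GABPB1/GABPB2 line these 6 genes passed as well, beside 10.1% of all genes higher and 10.7% lower, with Trp73 at 2.22 ± 0.229, Mdm2 at 1.76 ± 0.118 and Mdm4 at 0.62 ± 0.108. Both differences share the libraries of the GABPA line. Between the GABPB1/GABPB2 and GABPB1 responses no member passed in edgeR's test, beside 1.01% of all genes in either direction. DESeq2 called none either, and 1 member had an unadjusted p under 0.05. This was Trp73, with a difference of 0.53 ± 0.238 (adjusted p = 0.567) and a 95% interval of 0.03 to 1.04.

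**Figure D2:**
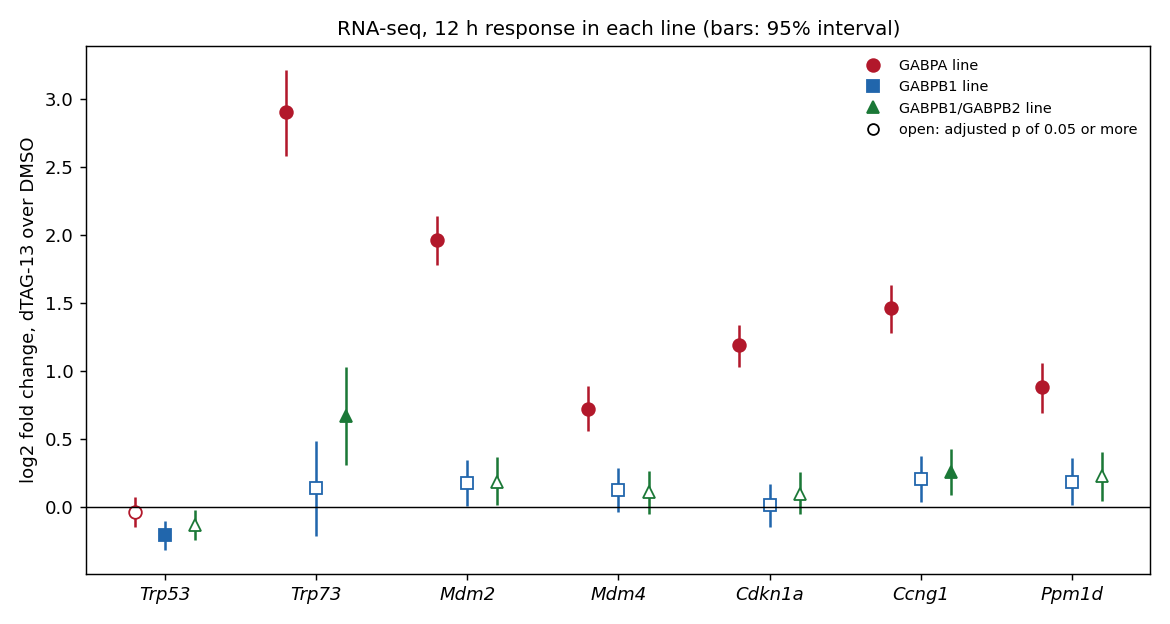
RNA-seq log2 fold change, dTAG-13 over DMSO at 12 h (vertical axis), of each member (horizontal axis) in the GABPA (circles), GABPB1 (squares) and GABPB1/GABPB2 (triangles) lines, with bars for the 95% interval and open symbols for an adjusted p of 0.05 or more. Trp73 lies at 2.90, 0.14 and 0.67 and Mdm2 at 1.96, 0.18 and 0.19, while all 3 values of Trp53 lie between -0.20 and -0.03.

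Before any dTAG-13, the members already differed between lines, which cannot be told apart from a difference between clones. In DMSO, 3 members were higher and 2 lower in the GABPB1 line than in the GABPA line, beside 29.7% and 31.5% of all genes. Mdm4 differed most, at 363 and 346 CPM in the GABPB1 line and 160 and 147 CPM in the GABPA line (1.20 ± 0.0776, adjusted p = 1.2e-09). The Mdm4 level of DMSO cells of the GABPB1 line also lay above that of GABPA cells after 12 h of dTAG-13 (243 and 266 CPM). Trp53 was 0.29 ± 0.0509 higher and Ccng1 0.40 ± 0.0815 higher in the GABPB1 line, and Cdkn1a was lower there (-0.39 ± 0.0743, adjusted p = 0.000226). Trp73 was at 5.2 and 4.53 CPM in the GABPB1 line and 7.37 and 5.83 CPM in the GABPA line (-0.43 ± 0.174, adjusted p = 0.0398). This call was lost under DESeq2 (adjusted p = 0.0506), without either GABPB1 library (adjusted p of 0.0631 and 0.247) and without GABPA replicate 1 (-0.27, adjusted p = 0.295).

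In DMSO cells of the GABPB1/GABPB2 line, 5 members were higher than in the GABPA line and none was lower, beside 31.6% and 30.4% of all genes. Mdm4 was at 340 and 406 CPM in the GABPB1/GABPB2 line and 160 and 147 CPM in the GABPA line (1.28 ± 0.0779, adjusted p = 7.38e-10). Ccng1 was 0.91 ± 0.0818 higher, Mdm2 0.36 ± 0.0837, Ppm1d 0.28 ± 0.0872 and Trp53 0.18 ± 0.051. The Ppm1d call was lost without GABPA replicate 2 (adjusted p = 0.0646) or GABPB1/GABPB2 replicate 1 (adjusted p = 0.0523), and that of Trp53 in a fit of the 4 libraries alone (adjusted p = 0.0597). Set against the GABPB1 line, the GABPB1/GABPB2 line was higher in Ccng1 (0.51 ± 0.0801, adjusted p = 0.00016) and Cdkn1a (0.42 ± 0.0738, adjusted p = 0.000384), beside 15% of all genes. Cdkn1a was at 197 and 165 CPM in the GABPB1/GABPB2 line and 138 and 132 CPM in the GABPB1 line. Without GABPB1/GABPB2 replicate 1 its difference was 0.25 (adjusted p = 0.00849). Mdm2, at 0.22 ± 0.0823 (adjusted p = 0.0568), was also called higher without the low-count filter (0.19, adjusted p = 0.0359) and without GABPB1/GABPB2 replicate 1 (0.26, adjusted p = 0.0404). Trp53 was called lower without GABPB1/GABPB2 replicate 2 (-0.16, adjusted p = 0.0355). Between these lines marker sums also differed: lineage markers summed to 29.7 to 31.4 TPM in DMSO cells of the GABPB1/GABPB2 line, 9.74 to 9.83 TPM in the GABPB1 line and 28.6 to 30.2 TPM in the GABPA line. For 9 markers of 2-cell-like cells the sums were 13 to 17.2, 0.62 to 0.85 and 8.18 to 9.06 TPM in the same order. Their part in the line differences was not tested. The 2 GABPB1/GABPB2 DMSO libraries differed from each other more than those of any other RNA-seq group, at 16.1 for the chi-square over its degrees of freedom, against 3.12 to 6.56.

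Newly made RNA of the GABPA line was examined to time the rises. At 1, 2 and 4 h no member was called in edgeR's test on converted reads, none by DESeq2 and none at an unadjusted p under 0.05. Over all 15887 genes tested, 1.78% were called at 1 h (0.0567% risen, 1.72% fallen), 3.35% at 2 h (0.145% and 3.21%) and 4.02% at 4 h (0.113% and 3.91%). At 1 h the member changes ran from -0.48 for Trp73 to 0.13 for Ccng1 (adjusted p of 0.707 to 0.985). At 2 h they ran from -0.27 for Cdkn1a to 0.51 for Trp73 (0.501 to 0.999), and at 4 h from -0.28 for Cdkn1a to 0.58 for Trp73 (0.385 to 0.912). The 2 h and 4 h values share their DMSO libraries. Leaving aside Trp73, whose few reads gave wide intervals, the 95% intervals of the other 6 genes lay between -0.55 and 0.49 at 1 h and between -0.64 and 0.61 at 4 h.

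Single libraries were compared as well. Converted reads of Mdm2 were at 300 and 316 CPM once dTAG-13 had acted for 1 h, and at 335 and 379 CPM in DMSO. After 4 h of dTAG-13 they were at 528 and 508 CPM, and in the DMSO libraries shared by 2 h and 4 h at 580 and 515 CPM. The groups compared at 4 h overlapped, and every one of these values lay below those after 12 h of dTAG-13. Ccng1 was at 490 and 511 CPM at 2 h and 518 and 504 CPM at 4 h of dTAG-13, above the 429 and 412 CPM of the shared DMSO libraries. Its changes of 0.25 ± 0.139 and 0.28 ± 0.14 did not pass (adjusted p of 0.501 and 0.385). Trp73 also lay above these DMSO libraries (16 and 12.2 CPM), at 20.2 and 20 CPM at 2 h and 21.7 and 20.5 CPM at 4 h. Cdkn1a lay below them (615 and 585 CPM), at 453 and 544 CPM at 2 h and 411 and 578 CPM at 4 h. Neither gene was called at these times. Trp73 rested on 9 and 11 converted reads after 1 h of dTAG-13, against 13 and 15 in DMSO. Set directly against each other, the 4 h and 2 h dTAG-13 libraries gave no call among the 7 genes or among all genes (657 of all genes had an unadjusted p under 0.05), and the member differences ran from -0.35 for Trp53 to 0.21 for Ppm1d.

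The 12 h dTAG-13 SLAM-seq libraries stood apart from the other 12 when all reads were counted. They held 31725 and 33420 genes with at least 5 reads, against 24251 to 28054 in the other libraries. The 50 most abundant genes took 18 and 20.4% of their reads, against 10.2 to 15.2%. Genes longer than 100 kb took 13.6 and 15.7% of all reads, against 8.5 to 11.1%. Of converted reads they took 13.1 to 13.5%, within the 9.47 to 14.6% of the other libraries. The matched 12 h DMSO libraries were at 9.47 and 9.48%, below both 12 h dTAG-13 libraries. The part of these features in the results was not tested.

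**Figure D3:**
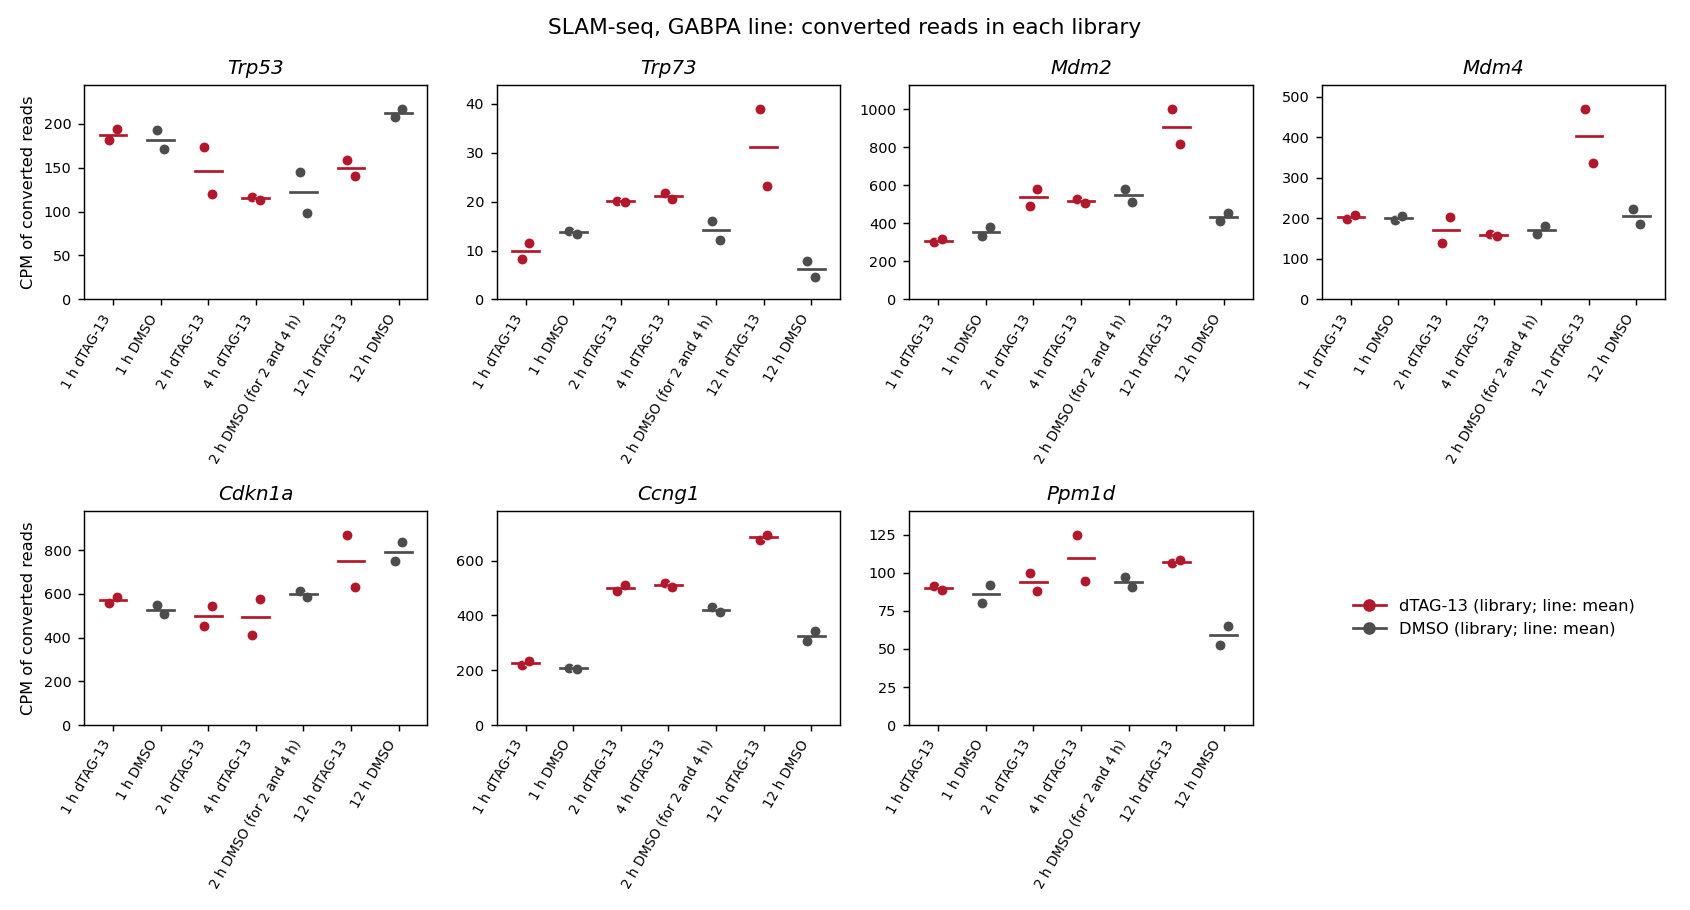
Converted reads of each member in SLAM-seq of the GABPA line (vertical axis, CPM from 0) in each library, with the groups along the horizontal axis from 1 h to 12 h; points are libraries, short lines are group means, and 1 pair of DMSO libraries serves 2 h and 4 h. At 12 h Mdm2 is at 1003 and 816 CPM with dTAG-13 and at 414 and 457 CPM in DMSO, while Cdkn1a is at 871 and 631 CPM and at 749 and 835 CPM.

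At 12 h, converted reads of 5 members rose and those of Trp53 fell, beside 12.3% and 18.3% of all genes. The median change of the 7 genes was 0.98, against 0.04 over all genes tested. Mdm2 was at 1003 and 816 CPM in dTAG-13 cells and 414 and 457 CPM in DMSO cells, with no overlap (1.07 ± 0.152, adjusted p = 8.44e-06). Trp73 was at 39 and 23.2 CPM and at 7.85 and 4.51 CPM in the same groups, on 162 and 41 converted reads after dTAG-13 and 17 and 10 in DMSO (2.36 ± 0.345, adjusted p = 1.15e-05). Mdm4 was at 470 and 337 CPM in dTAG-13 cells and 224 and 187 CPM in DMSO cells (0.98 ± 0.176, adjusted p = 0.000149).

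Ccng1 was at 674 and 695 CPM in dTAG-13 cells and 306 and 344 CPM in DMSO cells (1.08 ± 0.139, adjusted p = 2.28e-06). Ppm1d was at 106 and 108 CPM in dTAG-13 cells and 52.7 and 65 CPM in DMSO cells (0.86 ± 0.181, adjusted p = 0.000839). In all 5 genes both dTAG-13 libraries stood above both DMSO libraries. Trp53 was at 159 and 141 CPM in dTAG-13 cells and 208 and 217 CPM in DMSO cells (-0.50 ± 0.179, adjusted p = 0.0381). That call was lost without any 1 of the 4 libraries (adjusted p of 0.102 to 0.251), under DESeq2 (adjusted p = 0.0985), with DESeq2 size factors (0.0565) and with genes at 1 TPM or more only (0.0575).

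Cdkn1a was the member without a call at 12 h. Its converted reads were at 871 and 631 CPM in dTAG-13 cells and 749 and 835 CPM in DMSO cells. The DMSO values lay inside the range of the dTAG-13 values, and the change was -0.07 ± 0.171 (adjusted p = 0.777), with a 95% interval of -0.43 to 0.28. RNA-seq of the same line and time gave 1.19 ± 0.0744, with an interval of 1.03 to 1.34 that lies wholly above the one on converted reads. The assays were fitted separately, and the difference between them was not tested. The SLAM-seq tables list 1 interval for Cdkn1a, the whole gene of 9.8 kb, while the RNA-seq counts come from RSEM. What was counted may therefore differ between the assays, for Cdkn1a and for the other members. For Mdm2 the values were 1.07 on converted reads and 1.96 in RNA-seq, for Ccng1 1.08 and 1.46, for Mdm4 0.98 and 0.72, and for Ppm1d 0.86 and 0.88.

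Counts of all SLAM-seq reads, old and new RNA together, gave a similar order at 12 h. Again 5 members rose, beside 29.8% of all 26957 genes tested as risen and 27.6% as fallen, from 0.50 for Mdm4 to 1.78 for Trp73. Trp53 was at 150 and 117 CPM in dTAG-13 cells and 318 and 315 CPM in DMSO cells (-1.25 ± 0.21, adjusted p = 0.000163), where RNA-seq had shown 444 and 423 CPM and 446 and 439 CPM. Cdkn1a was at 227 and 164 CPM in dTAG-13 cells and 225 and 243 CPM in DMSO cells (-0.26 ± 0.181, adjusted p = 0.237). A fit of genes at 1 TPM or more only gave -0.91 for Trp53, 0.08 for Cdkn1a, 0.84 for Mdm4, 0.92 for Ccng1 and 0.91 for Ppm1d. Without dTAG-13 replicate 1, Cdkn1a was called as fallen (-0.59, adjusted p = 0.0136), Mdm2 was at 0.54, and Mdm4 lost its call (0.19, adjusted p = 0.33). The Mdm4 call was also lost without either DMSO library (adjusted p of 0.0693 and 0.125). Markers moved on all reads at 12 h as well. Of 12 stem cell markers 3 rose and 5 fell, with a median of -0.44. Of 11 fibroblast markers 5 rose and none fell (median 1.35), and of 12 lineage markers 4 rose and 2 fell (median 1.18). The median of all genes was 0.14, and the part of the markers in these results was not tested. At 1, 2 and 4 h no member was called on all reads, by edgeR or DESeq2 or at an unadjusted p under 0.05, beside 0.00371%, 0.215% and 2.13% of all genes.

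**Figure D4:**
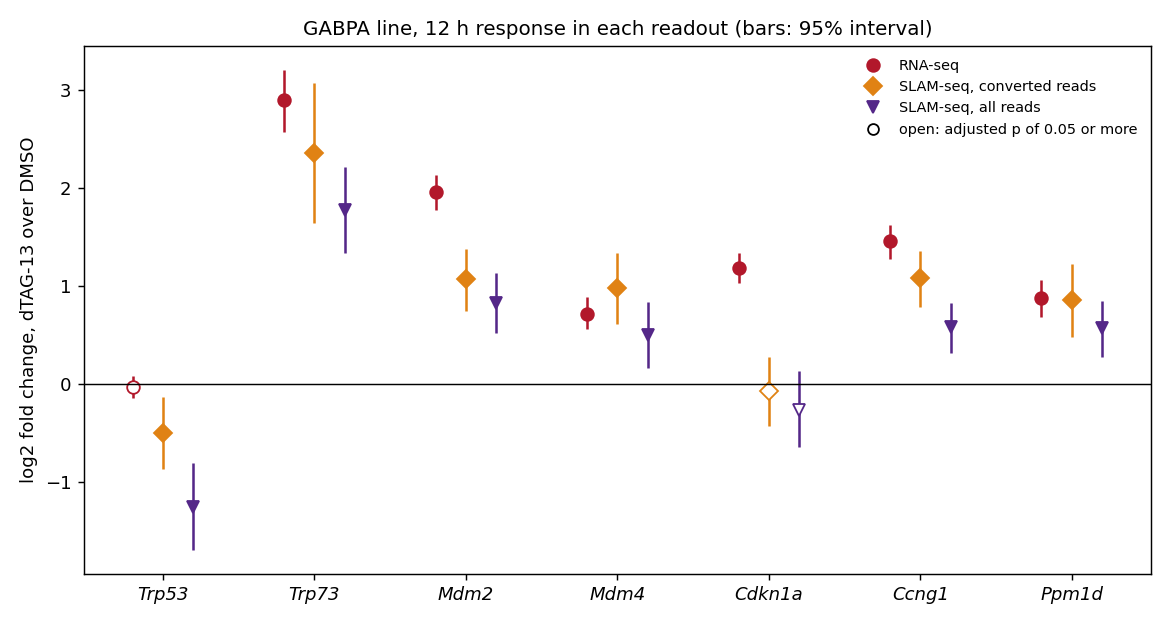
Log2 fold change at 12 h in the GABPA line, dTAG-13 over DMSO (vertical axis), of each member (horizontal axis) in RNA-seq (circles), SLAM-seq converted reads (diamonds) and all SLAM-seq reads (downward triangles), with bars for the 95% interval and open symbols for an adjusted p of 0.05 or more. Cdkn1a lies at 1.19 in RNA-seq and at -0.07 and -0.26 in SLAM-seq, and Trp53 at -0.03, -0.50 and -1.25.

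Converted counts were also scaled by all reads of each library, with the library sizes and TMM factors of the all-read counts. This keeps a change of new RNA relative to all RNA, and does not measure an absolute total. This moved the median of all genes to -0.14 at 1 h, -0.17 at 2 h, -0.26 at 4 h and -0.30 at 12 h. At 12 h 3.88% of all genes were then called as risen and 28.3% as fallen, in place of 12.3% and 18.3%. Trp73 was at 2.03, Mdm2 and Ccng1 at 0.72, Mdm4 at 0.64 and Ppm1d at 0.51 on that scale, all above the median, and Ppm1d no longer passed (adjusted p = 0.0572). Trp53 was at -0.84 and Cdkn1a at -0.41 (adjusted p = 0.12). At 1, 2 and 4 h no member was called on that scale either.

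The 12 h response minus the 1 h response, each with its own DMSO libraries, was positive and passed for 4 members, beside 2.14% of all genes higher and 4.7% lower. These were Trp73 (2.84 ± 0.577, adjusted p = 0.00385), Mdm2 (1.28 ± 0.221, adjusted p = 0.000911), Mdm4 (0.96 ± 0.26, adjusted p = 0.025) and Ccng1 (0.94 ± 0.205, adjusted p = 0.00649). Ppm1d (0.80 ± 0.272, adjusted p = 0.0776; 0.84 and 0.0484 among genes at 1 TPM or more only), Cdkn1a (-0.19 ± 0.246) and Trp53 (-0.54 ± 0.264, adjusted p = 0.222) did not pass. With scaling by all reads the calls of Mdm4 (adjusted p = 0.131) and Ccng1 (adjusted p = 0.053) were lost. The Mdm4 call was further lost without 1 h DMSO replicate 2, either 1 h dTAG-13 library, 12 h DMSO replicate 2 or 12 h dTAG-13 replicate 1 (adjusted p of 0.0697 to 0.107). The labels give no labelling time, so the 12 h and 1 h responses may cover unlike spans of labelling.

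The converted share, the percentage of a gene's reads that carry conversions, separated the members within 1 library. After 12 h of dTAG-13 it was 50.2 ± 2.3% for Mdm2 (SD, n = 2), 47.7 ± 5.53% for Mdm4, 43.7 ± 3.97% for Cdkn1a and 39.6 ± 7.72% for Ppm1d. It was 27.1 ± 0.546% for Ccng1, 24 ± 9.14% for Trp73 and 12.9 ± 0.0375% for Trp53, against 12.9 ± 1.26% for all genes together. In DMSO at 12 h it was 54.4 ± 0.284% for Mdm2, 43.9 ± 4.07% for Mdm4, 49.3 ± 0.415% for Cdkn1a and 40.8 ± 4.17% for Ppm1d. There it was 24.5 ± 1.28% for Ccng1, 20.4 ± 4.06% for Trp73 and 9.77 ± 0.219% for Trp53, against 14.1 ± 0.0984% for all genes together.

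In DMSO at 12 h, 6 members thus lay above all genes together and Trp53 below them. Both dTAG-13 libraries lay below both DMSO libraries for Mdm2 and Cdkn1a, and above both for Trp53 and Ccng1, while the groups of Mdm4, Ppm1d and Trp73 overlapped. At 1 h Mdm2 was at 15 ± 0.212% in dTAG-13 cells and 18.7 ± 2.52% in DMSO cells. In DMSO at 1 h the same 6 members lay above all genes (5.76 ± 0.448%), and Trp53 (5.37 ± 0.728%) did not differ from them beyond its spread. No test was run on the shares. The labelling time is not given in the labels, so shares are compared only within a time. Reads that map to several places made up 13.5 to 30.6% of Ppm1d reads and 2.96 to 8.15% of Trp53 reads, and up to 13% of Trp73 reads, so the levels of these 3 genes are less certain. They were at most 3.73% for the other 4 members.

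**Figure D5:**
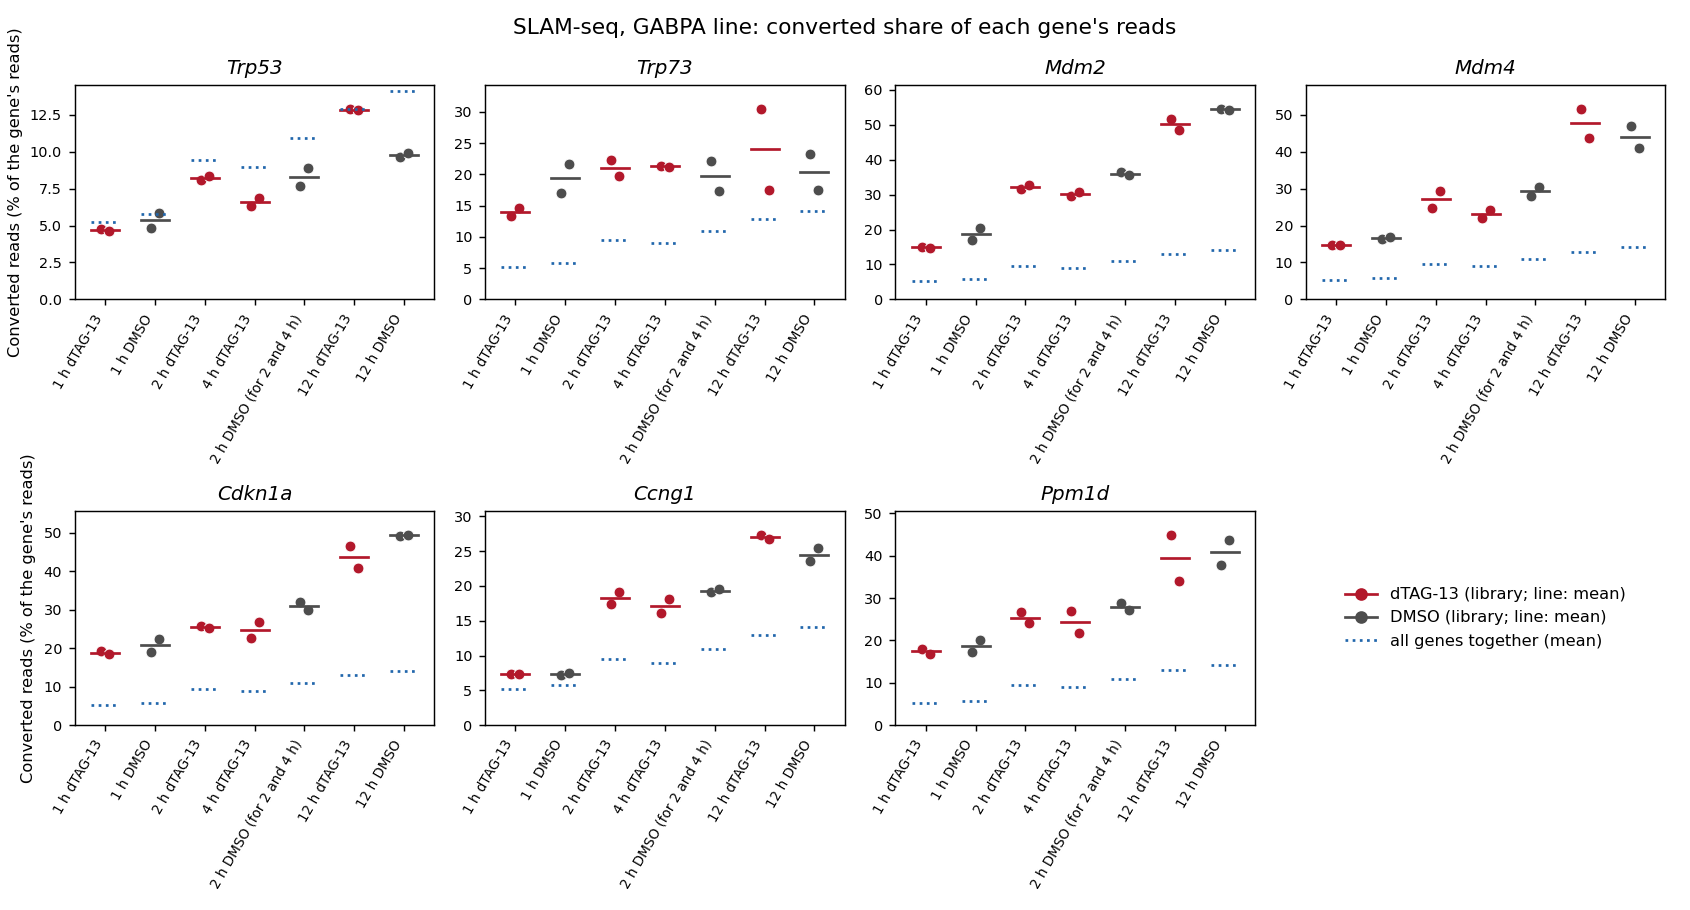
Converted reads as a percentage of each member's reads in SLAM-seq of the GABPA line (vertical axis, from 0), by group along the horizontal axis; points are libraries, short solid lines are group means and dotted lines are the mean share of all genes together. In DMSO at 12 h Mdm2 stands at 54.4% and Trp53 at 9.77%, on either side of the 14.1% of all genes together.

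Other genes of the p53 pathway were followed as lists. Of 49 further p53 targets, 40 rose, 3 fell and 6 were not called in RNA-seq of the GABPA line at 12 h, with a median of 1.26. Over all genes 24.6% rose and 21.9% fell, with a median of 0.06. The 4 with the smallest p were Btg2, an antiproliferative coregulator (2.29), Ephx1, an epoxide hydrolase (2.42), Plk2, a polo-like kinase (2.68), and Ddit4, an inhibitor of mTORC1 (3.20). Trp53i13 (-0.41), Polh (-0.38) and Tigar (-0.21) fell, and are named after their values were seen. In the GABPB1 line 6 targets rose and 1 fell, with a median of 0.11, beside 1.28% risen and 5.46% fallen of all genes. In the GABPB1/GABPB2 line 13 rose and none fell, with a median of 0.16, beside 3.53% and 9.26% of all genes. On converted reads 47 targets were tested. Of these 1 rose at 1 h, none at 2 h and 4 h, and 33 rose at 12 h, when none fell. Risen genes made up 0.0567% of all genes at 1 h, and at 12 h 12.3% of all genes rose and 18.3% fell. The gene called at 1 h was Ak1, an adenylate kinase (1.12, adjusted p = 0.0418).

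Of 32 regulators of p53 tested in RNA-seq of the GABPA line, 11 rose, 9 fell and 12 were not called, with a median of 0.12. Over all genes 24.6% rose and 21.9% fell, with a median of 0.06, so these counts are not read as particular to the regulators. Kat5, the acetyltransferase TIP60 that modifies p53, fell by 1.60 on the log2 scale, and Trim28, a corepressor that works with MDM2, fell by 0.45. Ppp1r13l, which encodes the p53 inhibitor iASPP, rose by 1.49, and Rchy1, which encodes the p53 ubiquitin ligase PIRH2, rose by 0.89. Kat5 also fell in the GABPB1 line (-0.44) and in the GABPB1/GABPB2 line (-0.68). Its converted reads were at -1.09 at 1 h, short of the threshold (adjusted p = 0.0607), and at -2.83 at 12 h (adjusted p = 3.98e-08). Daxx, a chaperone protein that binds MDM2, was the regulator called before 12 h, as fallen at 4 h (-0.85, adjusted p = 0.0492), and is named after its value was seen.

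Genes that tie ribosome assembly to MDM2 were another list of 20, since free ribosomal proteins can bind and inhibit MDM2. In RNA-seq of the GABPA line 7 rose, 6 fell and 7 were not called, with a median of 0.10, beside the same 24.6% risen, 21.9% fallen and median of 0.06 over all genes. Nothing particular to the list is read from these RNA-seq counts. Rrs1, an assembly factor of the large subunit, was at -1.20, Rps14, a ribosomal protein that can bind MDM2, at -1.05, Myc, a driver of ribosome production, at -0.78, and Rpl26, which can bind Trp53 mRNA, at 0.38. All 4 passed. Rps14 was the member of this list called before 12 h on converted reads. It stood at -0.70 at 1 h (adjusted p = 0.0346), -0.60 at 2 h (adjusted p = 0.0414), -0.72 at 4 h (adjusted p = 0.0095) and -0.81 at 12 h (adjusted p = 0.000514). Over the list, 1 of 19 genes rose and 6 fell on converted reads at 12 h, beside 12.3% and 18.3% of all genes. On all SLAM-seq reads at 12 h 1 of 20 rose and 13 fell, beside 29.8% and 27.6% of all genes. The part of the library make-up at 12 h in these counts was not tested.

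Among 28 tested genes of the G1 phase and its exit, which p21 controls, 4 rose, 12 fell and 12 were not called in RNA-seq of the GABPA line, with a median of -0.12, beside 24.6% risen, 21.9% fallen and a median of 0.06 over all genes. E2f4, a repressive E2F factor of the DREAM complex through which p53 and p21 act, fell the most of the 4 genes with the smallest p (-2.75, adjusted p = 1.5e-14). Its converted reads had fallen by 1 h (-1.46, adjusted p = 0.0012) and stood at -2.53 at 12 h. E2f4 also fell in the GABPB1 line (-0.68) and the GABPB1/GABPB2 line (-1.40). Ccne1, which encodes cyclin E1, was at -0.80, Pcna, the sliding clamp of DNA replication, at -0.68 and Rb1, the retinoblastoma protein gene, at 1.46. Lin37, another DREAM component, was called as fallen at 1 h (-1.76, adjusted p = 0.00849) and 4 h (-1.10, adjusted p = 0.0203), and is named after its values were seen.

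For each member, the 3 genes with the most similar profile were found by Euclidean distance over 7 log2 changes, 3 from RNA-seq and 4 from SLAM-seq, among 8926 genes tested in both assays. The changes at 2 h and 4 h share DMSO libraries, and so do not count as separate evidence. Nearest to Trp53 were Dppa2 (distance 0.17), Nid1 (0.17) and Cfl1 (0.22). Trp73 had no close neighbour, with Ephx1 at 0.92, Ddit4 at 1.08 and Klhl26 at 1.10. Mdm2 was nearest to Lrp1 (0.57), Pmaip1 (0.60) and Frem2 (0.62). Pmaip1, also a p53 target, was at 1.59 at 12 h in RNA-seq of the line and at 0.70 on converted reads, which also entered the distance.

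Mdm4 had Ogdhl (0.18) and Plekha7 (0.21), and Ppm1d had Rab23 (0.17), Dennd2c (0.25) and Camsap1 (0.26). Ccng1 was nearest to Cpped1 (0.21), Kif18b (0.27) and Lrrc28 (0.29). Nearest to Cdkn1a were Rsrp1 (0.34), Aen (0.38) and Psrc1 (0.46), of which Aen and Psrc1 stand on the list of p53 targets. Their changes at 12 h were 1.16, 0.93 and 1.04 in RNA-seq and 0.06, 0.03 and 0.23 on converted reads, values that entered the distance and so describe the choice.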

How the data were processed

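Of 92 samples of the series, the 12 RNA-seq and 14 SLAM-seq libraries of dTAG mouse embryonic stem cells were used, and 66 others were not. The deposited RNA-seq tables hold expected counts and TPM per gene, made with STAR 2.7.11a and RSEM 1.3.1, per the submitters' processing notes. The deposited SLAM-seq tables hold read counts per gene, all and with T-to-C conversions, made with slamdunk 0.4.3, per the same notes, and the file headers name the columns. The coordinates are those of mm39. The intervals in the SLAM-seq tables span whole genes, from 6.8 kb for Ccng1 to 84.0 kb for Trp73. Counting strand, labelling time and clone are not given in the sources used here.

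Rounding made the expected counts whole, and counts were taken per gene as deposited. Each kind of table (RNA-seq, converted reads, all SLAM-seq reads) was fitted once over all its libraries in edgeR 4.0.16 (R 4.3.3), with 1 coefficient a group, TMM scaling, a minimum count of 10 (15 in total) and the quasi-likelihood F test. P-values were adjusted by Benjamini-Hochberg over all genes tested. The standard error is the absolute log2 change divided by the square root of F, and 95% intervals use the t distribution with the total degrees of freedom. P-values measure the spread between duplicates, and the pooled fit assumes that groups vary alike. The fits were run before use on simulated counts, with few genes changed and the same spread for all genes. In the data many genes changed and the spread differed between groups, so that run does not check the fits under such conditions. Alternatives were DESeq2 1.42.0, edgeR with the size factors of DESeq2, all genes without a filter, a fit of the compared libraries alone, scaling of converted reads by all reads, a replicate block and each library left out. A restriction of SLAM-seq to genes at 1 TPM or more in RNA-seq and a crossed block were added after seeing the data. Total counts per library limit the precision most for converted reads, and Trp73 rested on 9 to 162 of them.

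The members and the gene lists were chosen with earlier results of these data known. Named genes are the 7 members, the 3 nearest genes of each by Euclidean distance (average log2 CPM of at least 3 in RNA-seq, no predicted or pseudogene symbols; 1 of them is not reported here) and up to 4 genes of each list with the smallest p in RNA-seq of the GABPA line. Promoter windows came from RefSeq, build GRCm38.p6.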

Additional observations from a re-analysis of the deposited data

Results flagged for a closer look

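The RNA-seq responses to 12 h of dTAG-13 differed between lines by a test of the difference itself for 6 of the 7 genes. As the GABPA response minus the GABPB1 response, the difference was 2.76 for Trp73, 1.78 for Mdm2, 0.59 for Mdm4, 1.17 for Cdkn1a, 1.24 for Ccng1 and 0.69 for Ppm1d (log2). Against the GABPB1/GABPB2 line it was 2.22 for Trp73, 1.76 for Mdm2, 0.62 for Mdm4, 1.08 for Cdkn1a, 1.19 for Ccng1 and 0.65 for Ppm1d. Both sets share the libraries of the GABPA line, and line and clone cannot be told apart. In DMSO, Mdm4 was already at 363 and 346 CPM in the GABPB1 line and at 340 and 406 CPM in the GABPB1/GABPB2 line, against 160 and 147 CPM in the GABPA line.

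On converted SLAM-seq reads of the GABPA line, the response at 12 h minus that at 1 h passed the test of the difference for 4 members. It was 2.84 for Trp73, 1.28 for Mdm2, 0.96 for Mdm4 and 0.94 for Ccng1. The 12 h dTAG-13 libraries differ from the others in make-up, and its part in these values was not tested. The labelling time is not given and may differ between 1 h and 12 h.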

How the results depend on the processing

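In the GABPA line at 12 h the RNA-seq count of 6 risen members was 6 under every setting tried, left-out libraries included. A fit of the compared libraries alone gave 4 risen members in the GABPB1 line, 1 in the GABPB1/GABPB2 line and 5 members higher in DMSO cells of the GABPB1 line than in the GABPA line. Without the low-count filter 1 member rose in the GABPB1 line, and Mdm2 was also called higher in DMSO cells of the GABPB1/GABPB2 line than in the GABPB1 line. DESeq2 called 1 member lower in DMSO cells of the GABPB1 line than in the GABPA line. On converted reads at 12 h the count of fallen members was 0 under DESeq2, with its size factors and with genes at 1 TPM or more only. Scaling by all reads left 2 risen members for the 12 h response minus the 1 h response. The cause of these shifts was not tested. With 1 library left out, risen members numbered 0 to 3 in the GABPB1/GABPB2 line and fallen members 0 to 0 in the GABPB1 line. In DMSO, 3 to 4 members were higher and 1 to 2 lower in the GABPB1 line than in the GABPA line, 4 to 5 higher in the GABPB1/GABPB2 line than in the GABPA line, and 2 to 3 higher and 0 to 1 lower than in the GABPB1 line. On converted reads at 12 h, 5 to 5 members rose and 0 to 0 fell, and 3 to 4 passed for 12 h minus 1 h. On all reads 4 to 5 rose and 1 to 2 fell. No label says that replicate numbers pair libraries, so pairing was not assumed. Deviations of same-numbered dTAG-13 and DMSO libraries had r of -0.03 to 0.05 in RNA-seq and 0 to 0.29 on converted reads. On all reads r was -0.09 at 1 h, 0.57 at 2 h, 0.38 at 4 h and 0.19 at 12 h. A replicate block changed no count of called members. With it Mdm2 had an adjusted p of 2.57e-11 in RNA-seq of the GABPA line. For DMSO cells of the GABPB1/GABPB2 and GABPA lines r was -0.14, and the crossed pairing, added after seeing the data, gave 5 members higher and 0 lower. No member's called change reversed its direction. Depth limits converted reads of Trp73 at 1 h, where 9 to 15 reads a library leave an interval of -1.42 to 0.46.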
